A study of Mus musculus with 9 samples.

Results

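The genes described here encode nuclear subunits of the mitochondrial respiratory chain: complexes I to IV and cytochrome c, the small electron carrier between complexes III and IV. The members are 44 listed genes, and every probe set that the platform annotation assigned to one of them alone was taken. A probe set is a group of short probes that together report 1 value for a transcript. This gave 95 probe sets for 42 of the 44 genes, out of 45037 probe sets and 18193 genes on the array. Ndufs6 is named only on a probe set shared with Ndufs6b, and Cox7b matched no probe set in the annotation used, so neither was analysed here. Of the 42 genes, 16 had 1 probe set and 26 had several. Where 1 value per gene is needed, the probe set with the highest mean over the 9 arrays, called the brightest, stands for the gene.

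The respiratory chain passes electrons from NADH and succinate to oxygen and uses the energy released to pump protons across the inner mitochondrial membrane. Complex I (NADH dehydrogenase) takes electrons from NADH in its matrix arm and pumps protons through its membrane arm. Complex II (succinate dehydrogenase) feeds in electrons from the tricarboxylic acid cycle, and complexes III and IV pass them by way of cytochrome c to oxygen. Neurons draw most of their ATP from this chain, and most of its subunits are encoded in the nucleus.

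The study compared brain hemispheres, cerebellum excluded, of untreated adult male mice of the strains C57BL/6ByJ, BALB/cJ and B6By.C.132.54, all 11 ± 1 weeks old. C57BL/6ByJ and BALB/cJ are inbred, and the name of B6By.C.132.54 gives a C57BL/6By background and a BALB/c donor. The amount and position of the donor DNA are not given in the sources used here. Each of the 9 Affymetrix Mouse430_2 arrays carried RNA from 10 pooled hemispheres, with 3 arrays and 30 mice per strain, so an error below is the spread between pools and not between mice. The work was done in 3 batches with each strain in every batch, and no label states that a replicate number is a batch. In whole-tissue RNA, fewer cells of a type and less RNA per cell cannot be told apart.

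Values are log2 intensities. The median probe set lay at 3.97, and folds are left out for values near or below it, which are hard to separate from background. The brightest probe sets of 41 member genes lay above this median. That of Cox7c, at 3.70, did not. All 8 neuronal markers measured lay above the same median, while 5 of 6 cerebellar and 6 of 7 muscle markers lay below it. The third B6By.C.132.54 array stood apart from the rest, with the narrowest spread of values (interquartile range 2.73 against 2.84 to 2.98 on the other 8) and a mean correlation of 0.988 with the other arrays of that strain, the lowest of the 9. The counts of calls, the medians over all member genes and Cox7c are given with and without it. Most other values, such as those of Ndufs1, Sdhd, the complex II median and the marker sums, are given with it only. Strain pairs were compared with limma's moderated test, adjusted by Benjamini-Hochberg over all 45037 probe sets, and a probe set with an adjusted p under 0.05 is referred to as called. The 3 comparisons share arrays and are not independent of one another.

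Across the chain, transcript levels in the 3 strains lay close together. Between BALB/cJ and C57BL/6ByJ, 2 of the 95 member probe sets were called, both lower in BALB/cJ, which is 2.11% of them beside 1.43% of all probe sets. Between B6By.C.132.54 and BALB/cJ, 2 were called, both higher in B6By.C.132.54, beside 1.28% of all. The probe sets were the same in both comparisons, 1 for the complex I subunit Ndufa12 and 1 for the complex II subunit Sdha. Between B6By.C.132.54 and C57BL/6ByJ limma called 0 of 95, beside 0% of all probe sets, and 0 had an unadjusted p under 0.05, beside 3.89% of all. Each comparison with BALB/cJ had 7 of 95 at that level (7.37%), beside 7.58% of all against C57BL/6ByJ and 7.5% against B6By.C.132.54. With the replicate number as a block, limma again called 2, 0 and 2 member probe sets, beside 2.12%, 0% and 1.85% of all, and 3 of 95 then had an unadjusted p under 0.05 between B6By.C.132.54 and C57BL/6ByJ, beside 7.44% of all. In the BALB/cJ comparisons, 7 of 95 against C57BL/6ByJ and 9 of 95 against B6By.C.132.54 were at that level with the block, beside 10.9% and 11% of all. The members' shares of calls lie near those of all probe sets, as do their unblocked unadjusted shares in the BALB/cJ comparisons. Between B6By.C.132.54 and C57BL/6ByJ the unadjusted shares lie below those of all. Bright genes in general lay low there too. By brightest probe sets, 1.42% of genes with a mean log2 level of 8 or more were at that level without the block, and 4.65% with it.

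The precision of these comparisons was fairly even over the chain. The median SE of a member gene's log2 difference was 0.09, and the median 95% interval reached 0.20 to either side. That interval lay within a 1.5-fold change either way for 41 of the 42 genes between BALB/cJ and C57BL/6ByJ, for 42 between B6By.C.132.54 and C57BL/6ByJ and for 41 between B6By.C.132.54 and BALB/cJ. Over all genes this held for 16796, 17099 and 16741 of 18193. The gene outside the bound in both BALB/cJ comparisons was Ndufa12. A member that changed less than these intervals reach could not have been resolved with 3 arrays per strain, and a call took a larger change. On simulated arrays, 0% of changes of 0.3 and 16% of changes of 0.5 were called. These changes were placed on any probe sets at or above the median level, without a shift shared by arrays of 1 replicate number. Most members are brighter, and the median SE over all genes was 0.11, so the rates are not those of the members. A difference that was not called does not show equal levels.

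**Figure D1:**
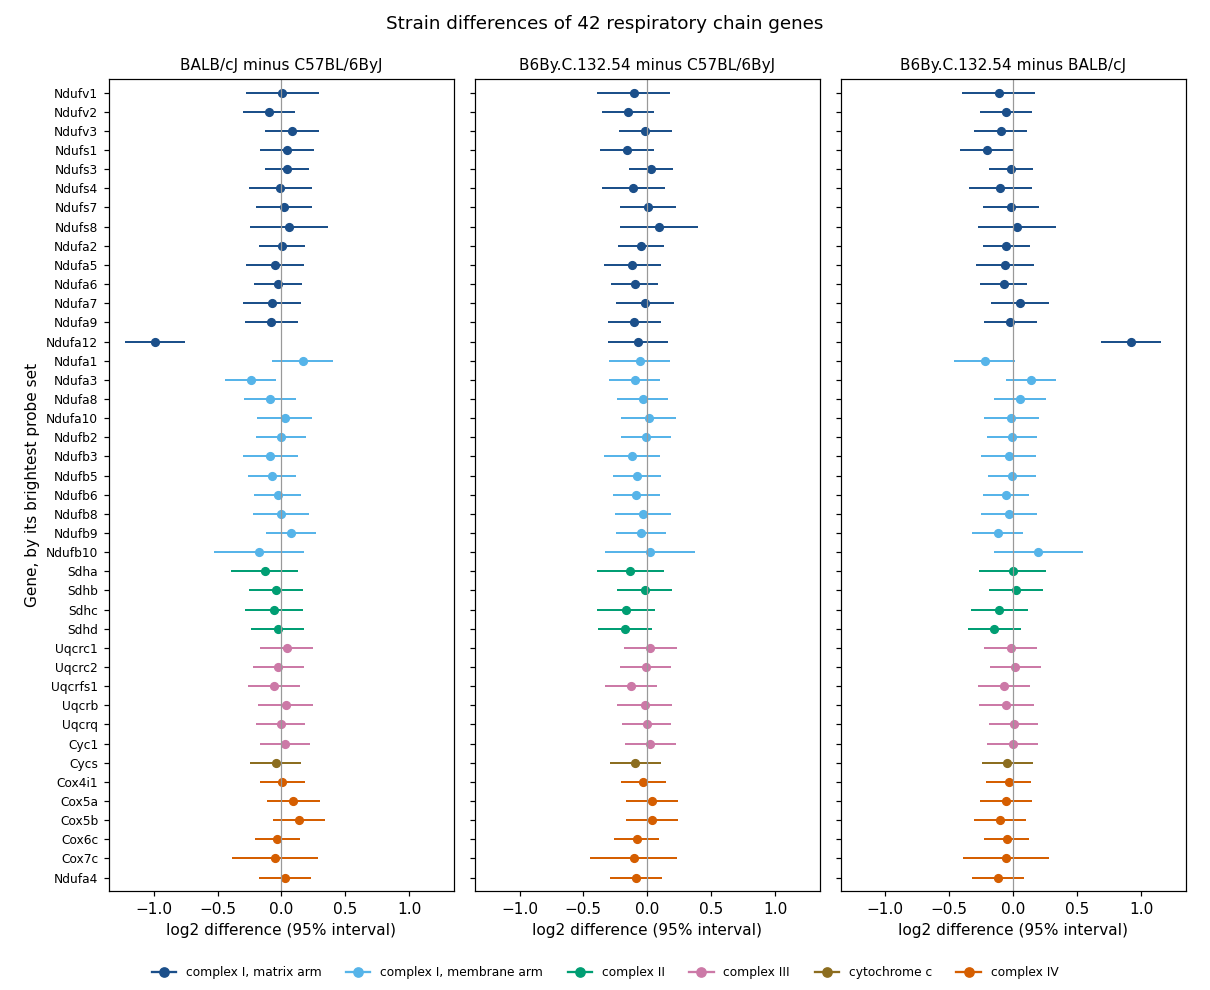
Log2 difference of each of the 42 genes by its brightest probe set (points) with the 95% interval of the limma fit (lines), for the 3 strain pairs, coloured by complex. Ndufa12 lies apart at -0.99 for BALB/cJ minus C57BL/6ByJ and at 0.92 for B6By.C.132.54 minus BALB/cJ, while the other genes lie near 0 in all 3 panels.

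The matrix arm of complex I oxidises NADH, and Ndufa12 is one of the accessory subunits attached to it. The gene lies on chromosome 10. Its brightest probe set, 1455806_x_at, read 10.46, 10.34 and 10.28 on the C57BL/6ByJ arrays, 9.50, 9.35 and 9.25 on the BALB/cJ arrays and 10.39, 10.34 and 10.13 on the B6By.C.132.54 arrays. The BALB/cJ arrays were the 3 lowest, with no overlap, while the other strains overlapped. BALB/cJ was 1.99-fold lower than C57BL/6ByJ (log2 difference -0.99 ± 0.10 SE, limma adjusted p = 0.000375) and B6By.C.132.54 was 1.89-fold higher than BALB/cJ (0.92 ± 0.10, limma adjusted p = 0.000704). B6By.C.132.54 differed from C57BL/6ByJ by -0.07 ± 0.10 (limma adjusted p = 0.937). Taken within replicate numbers 1, 2 and 3, the difference between BALB/cJ and C57BL/6ByJ was -0.96, -0.99 and -1.03.

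The other probe sets of Ndufa12 did not repeat this pattern. Probe set 1433513_x_at read 9.93, 9.81 and 9.71 in C57BL/6ByJ, 9.81, 9.77 and 9.62 in BALB/cJ and 9.89, 9.77 and 9.50 in B6By.C.132.54. These ranges overlap, and the difference between BALB/cJ and C57BL/6ByJ was -0.08 ± 0.11 (limma adjusted p = 0.969). Probe set 1418814_s_at went the opposite way, with 9.36, 9.34 and 9.23 in C57BL/6ByJ, 9.67, 9.53 and 9.58 in BALB/cJ and 9.40, 9.30 and 9.24 in B6By.C.132.54. Here the 3 BALB/cJ arrays were the highest, with a difference of 0.29 ± 0.08 from C57BL/6ByJ and no call (limma adjusted p = 0.239). The remaining probe set, 1425919_at, was dim, with a mean of 3.41. The 4 probe sets therefore give no common direction for the Ndufa12 transcript. The suffix _x_at marks a probe set with some probes that may match other transcripts, and _s_at one whose probes match several. The sequences of the probes were not used here.

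Sdha, on chromosome 13, encodes the flavoprotein of complex II that oxidises succinate. Its called probe set, 1433293_at, read 4.70, 4.84 and 4.92 in C57BL/6ByJ, 3.18, 3.59 and 3.68 in BALB/cJ and 4.76, 4.78 and 4.71 in B6By.C.132.54. The BALB/cJ arrays were again the 3 lowest, without overlap, and all 3 fell short of the array-wide median of 3.97. The difference from C57BL/6ByJ was -1.34 ± 0.12 (limma adjusted p = 0.000182) and that of B6By.C.132.54 from BALB/cJ was 1.27 ± 0.12 (limma adjusted p = 0.000302). B6By.C.132.54 and C57BL/6ByJ differed by -0.07 ± 0.12 (limma adjusted p = 0.949).

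The brightest probe set of Sdha, 1426688_at, overlapped between all strains, at 9.89, 9.99 and 10.05 in C57BL/6ByJ, 9.62, 10.04 and 9.89 in BALB/cJ and 9.82, 9.97 and 9.74 in B6By.C.132.54. Its difference between BALB/cJ and C57BL/6ByJ was -0.13 ± 0.11 (limma adjusted p = 0.931). That of 1426689_s_at was -0.05 (limma adjusted p = 0.984), and the last probe set, 1433292_at, was dim at 2.69. The change in Sdha was thus seen on 1 dim probe set of 4. Both probe sets stayed called in 15 of 15 alternative analyses that tested them, with limma adjusted p of at most 0.00699.

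**Figure D2:**
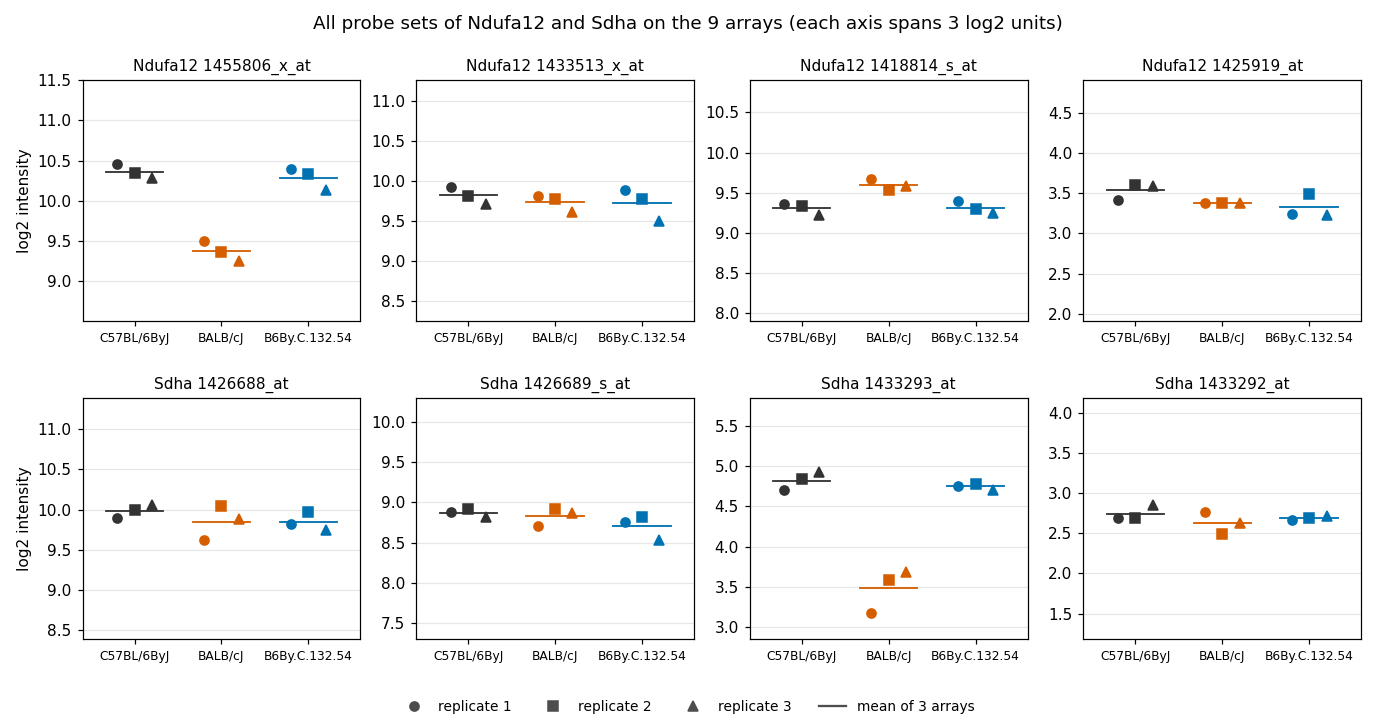
Log2 intensity of the 4 probe sets of Ndufa12 (top) and the 4 of Sdha (bottom) on each array, by strain, with symbols for the replicate number and a line at the mean of 3 arrays. BALB/cJ stands apart on 1455806_x_at and 1433293_at, is the highest strain on 1418814_s_at, and overlaps another strain on the other panels.

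The other subunits of the matrix arm showed smaller differences, and limma called none of them. The arm's 14 measured genes had a median difference of -0.0025 between BALB/cJ and C57BL/6ByJ, with 7 above 0 and 7 below. Ndufv1, which carries the NADH binding site, differed by 0.0079 ± 0.13 SE between these strains, and Ndufa9, at the junction of the arms, by -0.08 ± 0.09. Ndufs1, the largest iron-sulfur subunit, read 8.53, 8.54 and 8.58 in C57BL/6ByJ, 8.53, 8.57 and 8.67 in BALB/cJ and 8.28, 8.56 and 8.32 in B6By.C.132.54. Arrays 1 and 3 of B6By.C.132.54 were the lowest and array 2 was level with the other strains. Ndufs1 had the lowest unadjusted p of the arm after Ndufa12 between B6By.C.132.54 and BALB/cJ (-0.21 ± 0.09, unadjusted p = 0.0493 in limma, limma adjusted p = 0.663).

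Among the 11 measured genes of the membrane arm, none was called, and the medians of the 3 comparisons were -0.03, -0.05 and -0.01 for BALB/cJ minus C57BL/6ByJ, B6By.C.132.54 minus C57BL/6ByJ and B6By.C.132.54 minus BALB/cJ. Ndufa3, an accessory subunit, came nearest to a call between BALB/cJ and C57BL/6ByJ. Its probe set 1452790_x_at read 10.44, 10.55 and 10.36 in C57BL/6ByJ, 10.19, 10.20 and 10.23 in BALB/cJ and 10.37, 10.43 and 10.25 in B6By.C.132.54. Its probe set 1428464_at read 9.75, 9.76 and 9.67 in C57BL/6ByJ, 9.51, 9.53 and 9.34 in BALB/cJ and 9.82, 9.73 and 9.58 in B6By.C.132.54. On both probe sets the BALB/cJ arrays were the 3 lowest. Between BALB/cJ and C57BL/6ByJ the probe sets differed by -0.24 ± 0.09 and -0.27 ± 0.09, neither of them called (limma adjusted p = 0.416 and 0.393), and a dim probe set at a mean of 2.97 had the opposite sign. Unlike in Ndufa12, both bright probe sets of Ndufa3 had the same sign.

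Ndufa1, an X-linked accessory subunit, read 10.34, 10.36 and 10.21 in C57BL/6ByJ, 10.57, 10.50 and 10.34 in BALB/cJ and 10.29, 10.38 and 10.06 in B6By.C.132.54. BALB/cJ had the highest values but overlapped both other strains. The difference of B6By.C.132.54 from BALB/cJ was the largest of the arm (-0.22 ± 0.11, limma adjusted p = 0.692). Ndufb3 had the largest difference of the arm between B6By.C.132.54 and C57BL/6ByJ (-0.12 ± 0.10, limma adjusted p = 0.915). Ndufb8, a subunit often used as a protein marker of complex I, differed by -0.00012, -0.03 and -0.03 in the 3 comparisons (SE 0.10).

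Complex II besides the 1 dim probe set of Sdha also gave no call. Sdhb, the iron-sulfur subunit, read 10.18, 10.29 and 10.21 in C57BL/6ByJ, 10.03, 10.30 and 10.22 in BALB/cJ and 10.20, 10.28 and 10.13 in B6By.C.132.54, with overlap throughout. Sdhd, one of the membrane anchors, had the largest difference of the complex between B6By.C.132.54 and C57BL/6ByJ by brightest probe sets, at -0.17 ± 0.09 (limma adjusted p = 0.915). It read 8.43, 8.52 and 8.58 in C57BL/6ByJ, 8.47, 8.48 and 8.49 in BALB/cJ and 8.28, 8.49 and 8.23 in B6By.C.132.54. As in Ndufs1, replicates 1 and 3 of B6By.C.132.54 were low and replicate 2 was not. All 4 genes of the complex had a difference below 0 in this comparison, with a median of -0.15. So did 33 of the 42 member genes and 1477 of the 1764 genes with a mean log2 level of 8 or more.

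Complex III takes electrons from ubiquinol. Its 6 measured genes had medians of 0.01, -0.0074 and -0.01 in the 3 comparisons, in the order given above, and none was called. The core proteins Uqcrc1 and Uqcrc2 differed between BALB/cJ and C57BL/6ByJ by 0.04 ± 0.09 and -0.03 ± 0.09. Cyc1, which carries the heme of cytochrome c1, differed by 0.03 ± 0.09. Uqcrfs1, the Rieske iron-sulfur protein, read 9.36, 9.36 and 9.40 in C57BL/6ByJ against 9.16, 9.31 and 9.28 in B6By.C.132.54. These arrays did not overlap, but the difference of -0.12 ± 0.09 was not called (limma adjusted p = 0.915). Over all 42 genes, the groups did not overlap for 3, 2 and 2 genes (7.14%, 4.76% and 4.76%), beside 13.5%, 6.96% and 9.77% of all genes.

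Cycs, the somatic cytochrome c, read 9.93, 9.83 and 9.83 in C57BL/6ByJ, 9.81, 9.83 and 9.81 in BALB/cJ and 9.84, 9.84 and 9.62 in B6By.C.132.54 on its brightest probe set. The third B6By.C.132.54 array was the lowest and the other 8 lay between 9.81 and 9.93, and no comparison was called. The 4 probe sets of Cycs ranged in their BALB/cJ minus C57BL/6ByJ difference from -0.24 to 0.19, the former on a probe set that varied strongly with replicate number and is described below, and the latter on one at background.

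Complex IV reduces oxygen to water. Cox4i1 and Cox5b, nuclear subunits of the oxidase, differed between BALB/cJ and C57BL/6ByJ by 0.01 ± 0.08 and 0.14 ± 0.09. Cox5b, which had the largest difference of the complex here, read 11.56, 11.77 and 11.64 in C57BL/6ByJ, 11.71, 11.88 and 11.80 in BALB/cJ and 11.66, 11.74 and 11.68 in B6By.C.132.54. BALB/cJ was higher than C57BL/6ByJ within each replicate number on this brightest probe set, although the strains overlapped (limma adjusted p = 0.85). Over the 6 probe sets of Cox5b the difference between these strains ranged from -0.05 to 0.22. Cox5a differed by 0.09 ± 0.09 and Cox6c by -0.03 ± 0.08. Ndufa4, first described as a complex I protein and now placed in complex IV, differed by 0.03 ± 0.09 between BALB/cJ and C57BL/6ByJ and by -0.12 ± 0.09 between B6By.C.132.54 and BALB/cJ. Cox7c was at background and moved from -0.11 to 0.08 between B6By.C.132.54 and C57BL/6ByJ without the third B6By.C.132.54 array.

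As a family the chain had small median differences. Only that of B6By.C.132.54 minus BALB/cJ kept its sign under every alternative, and it came as near to 0 as -9.7e-05. The median over the 42 genes was -0.017 for BALB/cJ minus C57BL/6ByJ (17 genes above 0 and 25 below), -0.054 for B6By.C.132.54 minus C57BL/6ByJ (9 and 33) and -0.042 for B6By.C.132.54 minus BALB/cJ (9 and 33). Over all 18193 genes the medians were 0.015, -0.016 and -0.025. The 1764 genes with a mean log2 level of 8 or more, a range that holds most members, gave -0.031, -0.077 and -0.051. Quantile normalization turned the first median of the members to 0.015 and the second to 0.012, and left the third at -0.0059. Without the third B6By.C.132.54 array the second median was -0.0057 and the third was -9.7e-05.

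That array can be seen directly in the members. Each gene's deviation from its own 9-array mean had a median over the 42 genes of -0.01, 0.05 and -0.10 on the 3 B6By.C.132.54 arrays, of 0.01, 0.04 and 0.0037 on the C57BL/6ByJ arrays and of -0.05, 0.04 and 0.03 on the BALB/cJ arrays. On the third B6By.C.132.54 array 4 of 42 genes lay above their own mean, while on the second 34 did. Genes with a level of 8 or more had medians of -0.13 and 0.05 on these arrays, so the members followed other genes of their range. Sums of marker intensities are given by strain, with the third array included. The neuronal markers Snap25, Syt1, Nefl, Nefm, Map2, Tubb3 and Stmn2 had their lowest value of the 9 arrays on that array. Rbfox3 had it on the first B6By.C.132.54 array. Sums of neuronal markers reached lower in B6By.C.132.54, at 7870 to 9536. They ran from 9075 to 10501 in C57BL/6ByJ and from 8542 to 10057 in BALB/cJ, ranges that overlap. Sums for astrocytes, myelin, endothelium with pericytes, and blood cells (2 genes, at 25.5 to 36.9) also reached lower in B6By.C.132.54 than in either other strain. Those of the 7 astrocyte markers ran from 3391 to 4067 and those of the 6 myelin markers from 8382 to 10077, against 9379 to 9984 for myelin in C57BL/6ByJ and 9370 to 9996 in BALB/cJ. The 7 endothelial and pericyte markers summed to 602 to 692 in B6By.C.132.54, below the 718 to 743 in C57BL/6ByJ and the 695 to 744 in BALB/cJ without overlap. Sums for microglia (1173 to 1371) and for muscle (108 to 118, mostly dim markers) reached higher in B6By.C.132.54 than in either other strain. Those for myelin and blood cells reached higher there as well as lower, with blood cells up to 33.0 in C57BL/6ByJ and 34 in BALB/cJ. Those for cerebellum and choroid plexus lay within the range of the other strains. The part of these markers in the result was not tested.

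**Figure D3:**
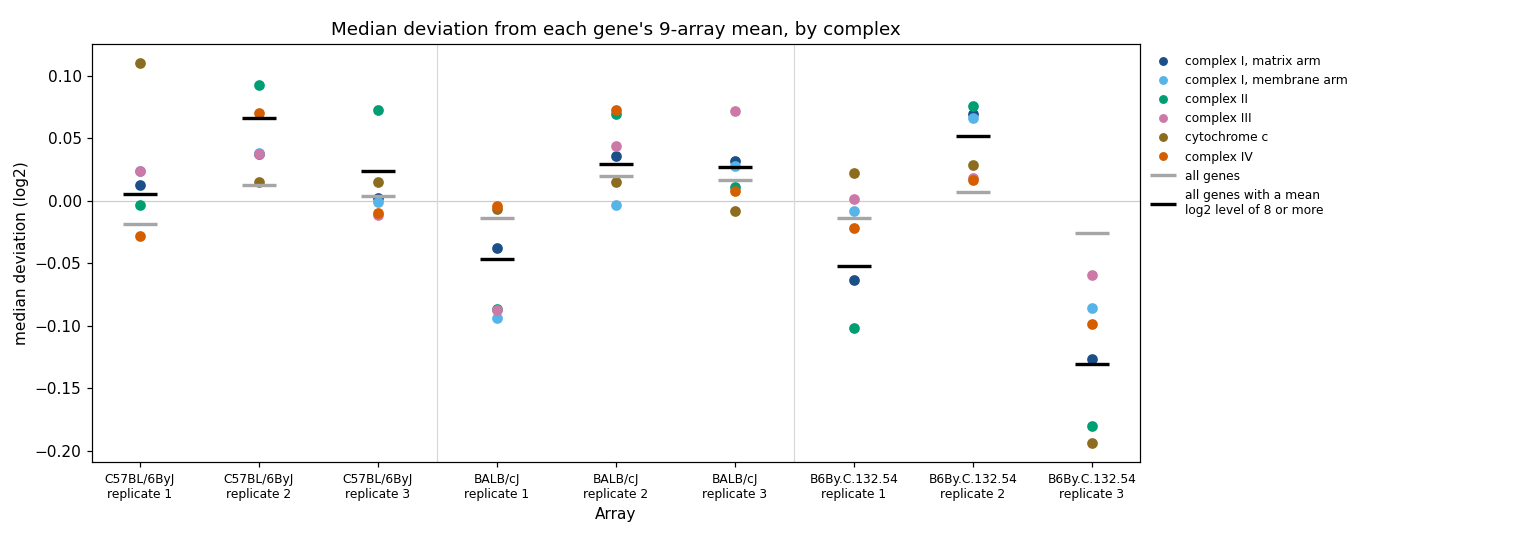
Median over the genes of each complex of the deviation from the gene's own mean over 9 arrays (points), by array, with the median over all genes (grey bars) and over genes with a mean log2 level of 8 or more (black bars). Every complex lies below 0 on the third B6By.C.132.54 array and above 0 on the second.

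Replicate number accounted for more of the members' variance than strain did. For the brightest probe sets, the median share of the variance over the 9 arrays was 23.9% for strain, 43.0% for replicate number and 33.1% for the rest, and the share for number exceeded that for strain in 31 of 42 genes. Over genes with a level of 8 or more the same medians were 24.1%, 45.3% and 23.4%, and over all genes 24.0%, 31.6% and 35.6%. These shares are not corrected for what a factor takes up without any effect in 9 arrays. The share for strain therefore does not show a strain effect. Complex III had the smallest share for strain, 4.5%.

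Some probe sets of respiratory chain genes separated the first replicate of every strain from the others. The 3 arrays numbered 1 all lay above the other 6 arrays on 10 of the 95 member probe sets, beside 4.47% of all probe sets, and all below on 4, beside 4.69% of all. Both directions together made 14 of 95 (14.7%), beside 9.16% of all probe sets and 14.2% of those at or above the median level, and 3 of the 42 brightest probe sets (7.14%). The members' share thus lay near that of probe sets in the upper part of the range. Differences over 0.4 were seen on 8 of 95 (8.42%), all higher in replicate 1, beside 3.13% of all probe sets and 5.4% of those at or above the median level. The threshold of 0.4 and the probe sets named here were chosen after their values were seen.

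The clearest case was Ndufb6, an accessory subunit of the membrane arm. Probe set 1434056_a_at read 8.07, 8.25 and 8.22 on the first arrays of C57BL/6ByJ, BALB/cJ and B6By.C.132.54 and between 6.07 and 6.72 on the other 6, a difference of 1.73 or 3.32-fold. The brightest probe set of the same gene, 1434057_at, lay between 9.09 and 9.31 on all 9 arrays. Cox5a was similar, with 10.21, 10.06 and 10.19 against 9.05 to 9.43 on 1415933_a_at (difference 0.94). Its brightest probe set, 1448153_at, read 10.16, 10.31 and 10.23 in replicate 1 and up to 10.42 in the others. The others were 1456071_a_at and 1422484_at of Cycs (1.18 and 0.62), 1417102_a_at of Ndufb5 (0.81), 1439267_x_at of Cox5a (0.79), 1416337_at of Uqcrb (0.45) and 1435757_a_at of Uqcrc2 (0.42). None of the 8 was the brightest probe set of its gene. The shared shift widened the errors of strain differences where replicate number was left out of the fit. For Ndufb6 the difference between BALB/cJ and C57BL/6ByJ was 0.0020 ± 0.63 without the replicate block and had an SE of 0.098 with it. What set the first replicates apart was not tested.

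**Figure D4:**
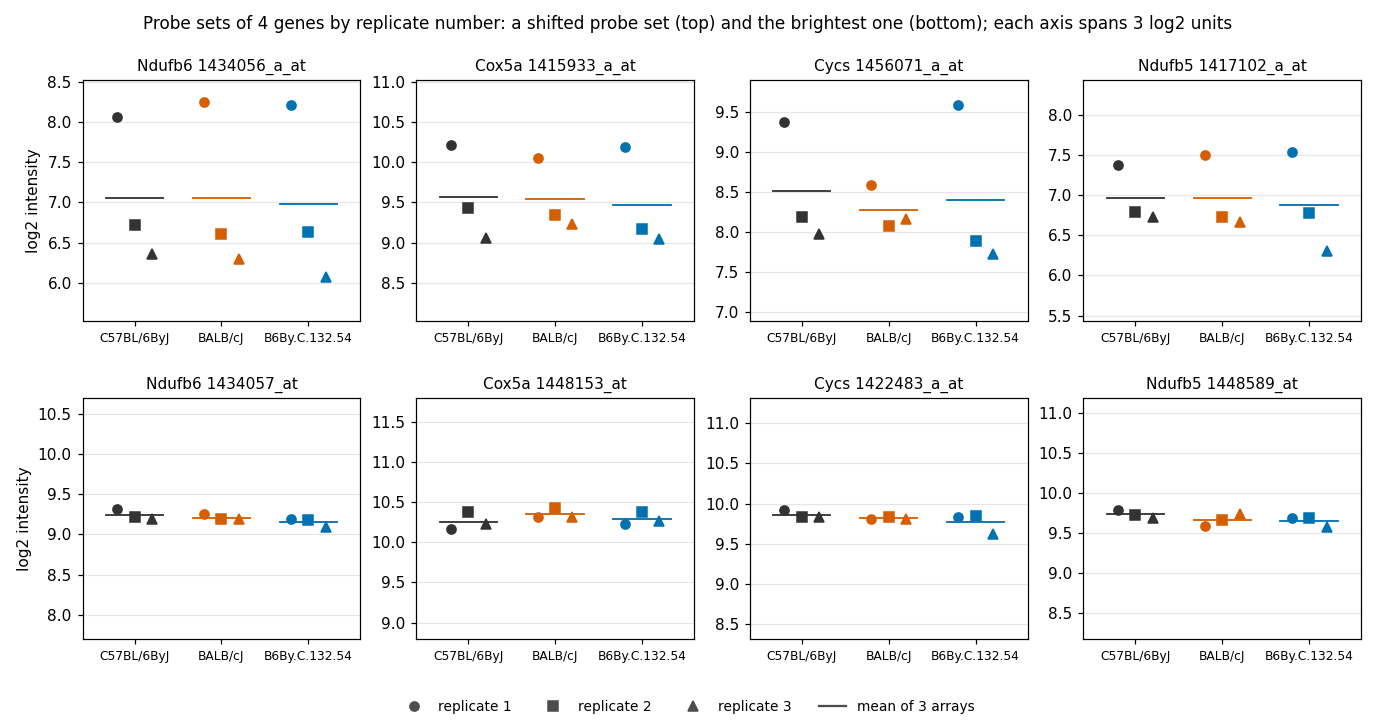
Log2 intensity on the 9 arrays of a probe set that separates replicate 1 (top) and of the brightest probe set of the same gene (bottom) for Ndufb6, Cox5a, Cycs and Ndufb5, with symbols for the replicate number and a line at the strain mean. In the top row every circle (replicate 1) lies above every other symbol, by 1.73 on average for Ndufb6, while in the bottom row the replicates overlap.

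By calls, genes around the chain gave a similar picture. Of 16 further nuclear subunits of complexes I, III and IV measured, limma called 0 in each comparison by brightest probe sets, and 1, 0 and 0 had an unadjusted p under 0.05. ATP synthase, which spends the proton gradient to make ATP, had 0 of 15 called (3, 0 and 1 at an unadjusted p under 0.05 in limma). The tricarboxylic acid cycle list had 0 of 16 called (1, 2 and 2), the biogenesis regulators 0 of 17 (0, 1 and 1), and the carriers with the transhydrogenase 0 of 9 (1, 0 and 0). The muscle or alternative isoforms had 0 of 6 called (1, 0 and 0), and the supercomplex factors 0 of 3 (0, 0 and 0). Over all 18193 genes, 82 were called higher and 159 lower in the first comparison, 0 in the second, and 107 higher and 94 lower in the third. An unadjusted p under 0.05 in limma was found for 7.78%, 3.99% and 7.59% of all genes. Some lists lay above these shares, with ATP synthase at 20% in the first comparison, and others lay below.

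Cox7a2l, a factor of supercomplex assembly, had a difference of 0.09 ± 0.09 between BALB/cJ and C57BL/6ByJ, and it was -0.12 ± 0.09 between B6By.C.132.54 and BALB/cJ. Nnt, the proton-driven transhydrogenase that makes NADPH, differed by -0.01, -0.0021 and 0.0094 in the 3 comparisons (SE 0.11). Ppargc1a, a coactivator of mitochondrial biogenesis, differed by 0.07 ± 0.08 between B6By.C.132.54 and each of the other strains. None of the 3 was called.

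Of 38 assembly factors measured, limma called 1, Cox18, which inserts part of a core subunit of complex IV into the membrane. The call was for B6By.C.132.54 minus BALB/cJ, where 107 of all 18193 genes were called higher and 94 lower. Cox18 read 5.95, 6.10 and 5.96 in C57BL/6ByJ, 6.22, 6.54 and 6.50 in BALB/cJ and 5.79, 6.01 and 5.89 in B6By.C.132.54. BALB/cJ was the highest strain without overlap. B6By.C.132.54 was lower than BALB/cJ by a log2 difference of -0.52 ± 0.11 (limma adjusted p = 0.0413), and BALB/cJ differed from C57BL/6ByJ by 0.41 ± 0.11 (limma adjusted p = 0.137). The replicate block lowered the latter to a limma adjusted p of 0.0313, and this was the 1 alternative of 15 that called it, with adjusted p reaching 0.496 without BALB/cJ replicate 2. The call of B6By.C.132.54 against BALB/cJ held in 4 of 15 alternatives, with adjusted p from 0.00794 to 0.207, and BALB/cJ replicate 1 was the single array without which it remained. Without BALB/cJ replicate 2 the adjusted p was 0.207.

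Markers of brain cell types are given beside these results because the tissue was whole. None of 8 neuronal markers was called in any comparison. Between BALB/cJ and C57BL/6ByJ limma called the astrocyte gene Gfap higher (0.92, adjusted p = 0.00393) as 1 of 7 astrocyte markers, the microglial genes C1qb and C1qc lower (-0.75 each, limma adjusted p = 0.0193 and 0.00943) as 2 of 8, and the endothelial gene Cldn5 lower (-0.54, limma adjusted p = 0.0466) as 1 of 7. Between B6By.C.132.54 and BALB/cJ it called Gfap (-0.71), C1qb (0.88), C1qc (0.83) and the pericyte gene Rgs5 (-0.56). Of 6 myelin markers limma called 0, and with the replicate block 1, Mal, lower in BALB/cJ than in C57BL/6ByJ without overlap (-0.44, limma adjusted p = 0.201, and 0.0349 when blocked). The summed intensity of the 7 astrocyte markers ran from 4036 to 4285 in C57BL/6ByJ, from 4085 to 4281 in BALB/cJ and from 3391 to 4067 in B6By.C.132.54. The part of cell makeup in the values of Ndufa12, Sdha and Cox18 was not tested.

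Promoters of the members were read for letters of known regulators, since NRF1 is a textbook activator of cytochrome c and other respiratory genes. In the RefSeq table of GRCm38.p6 promoters, 34 of the 44 listed members matched by symbol, and the 250 bases before the start were searched on both strands. The NRF1 core GCGCATGC was in 4 of 34 (11.8%) and in 2.56% of 27025 genes. The ETS core CCGGAAG was in 3 (8.82%) beside 7.83%, the TATA box TATAAA in 3 (8.82%) beside 14.3%, and the YY1 core AAGATGGC in 0 beside 1.83%. A match is a description of the letters and not of binding. The 60-base windows that hold the NRF1 core are shown because they let the 4 members be compared. They are the C57BL/6J reference read 5′ to 3′ on the gene's strand, and the capitals mark the core, which stands in its reverse complement in each.

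Cycs: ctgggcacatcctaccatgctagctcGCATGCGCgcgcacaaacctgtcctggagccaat
Ndufa6: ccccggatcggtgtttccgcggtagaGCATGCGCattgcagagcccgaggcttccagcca
Ndufa8: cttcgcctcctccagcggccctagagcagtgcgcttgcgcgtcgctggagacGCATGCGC
Sdhb: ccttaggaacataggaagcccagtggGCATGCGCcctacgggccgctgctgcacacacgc

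The windows lie at chr6:50566596-50566655 on the minus strand for Cycs, chr15:82354341-82354400 on the minus strand for Ndufa6, chr2:36049339-36049398 on the minus strand for Ndufa8 and chr4:140961191-140961250 on the plus strand for Sdhb. The core began 60, 83, 8 and 54 bases before the annotated start. The differences between BALB/cJ and C57BL/6ByJ were -0.05 ± 0.09 for Cycs, -0.03 ± 0.08 for Ndufa6, -0.09 ± 0.09 for Ndufa8 and -0.04 ± 0.09 for Sdhb, and none of the 4 was called in any comparison. Neither Ndufa12 nor Sdha was among the genes with a match to any of the motifs. Only 34 of the 44 listed members could be searched, so the lack of a match does not show that a gene's promoter was searched. The alleles of the strains studied at these positions were not analysed here.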

How the data were processed

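Pooled hemispheres gave 7 µg of total RNA per array (Affymetrix Mouse430_2). Values were deposited as linear intensities, 1 for each probe set on each array, already summarised by the authors. GCOS and RMA are named in the submitters' processing notes, and how background was treated is not given in the sources used here. The median intensity per array was 15.5 to 16.0, and the number of arrays limits the precision. Of the 95 member probe sets, 38 had an identical value on at least 2 arrays.

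The intensities were log2-transformed and not normalized again. Of 45101 probe sets, 64 controls were left out. Annotation gave 1 gene for 34945 probe sets, several for 932 and none for 9160, and 34741 symbols were updated through RefSeq GRCm38.p6. 2 probe sets that name a member and another gene were left out. limma 3.58.1 under R 4.3.3 fitted 1 mean per strain to all 9 arrays (lmFit, eBayes, 6 residual and 4.82 prior degrees of freedom). The design text gives 3 batches with every strain in each. Deviations from the strain means correlated at 0.147 to 0.542 over all probe sets for arrays of the same number. Between different numbers they correlated at -0.458 to 0.153, and centring on 3 arrays in itself lowers these. The first replicates stood out, at 0.519 to 0.542, while the second ones, at 0.147 to 0.180, were near the highest pairs of different numbers. Over member probe sets the ranges were 0.544 to 0.923 and -0.850 to 0.583, which overlap. A fit with the replicate block was therefore also made. On simulated data for BALB/cJ against C57BL/6ByJ with 45037 probe sets, the fit recovered 0% of changes of 0.3, 16% of 0.5, 74% of 1 and 86% of 1.5 (50 each) and called 6 unchanged probe sets. The changes were placed on probe sets at or above the median level.

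The members and lists were chosen with earlier results of these data known. Named genes were the called member probe sets, per complex and comparison the gene with the lowest p and the one with the largest difference, 17 core subunits, members with probe sets of opposite sign over 0.3 apart, called genes of the surrounding lists, and Cox7a2l, Nnt and Ppargc1a. Ndufa6 and Ndufa8 were named for their promoters. Alternatives were the replicate block, quantile normalization, median centring, a filter on dim probe sets, a trended robust variance, 2 strains alone, no _x_at or _s_at probe sets, means over a gene's probe sets, and leaving out each array. Figures were drawn with matplotlib 3.10.9.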

Additional observations from a re-analysis of the deposited data

How the results depend on the processing

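The counts of called member probe sets (2, 0 and 2) were the same with the replicate block (2, 0 and 2), under quantile normalization, median centring, the trended robust variance and with 2 strains alone, and without any 1 array (2 to 2, 0 to 0 and 2 to 2). Without _x_at and _s_at probe sets, 1 was called in each BALB/cJ comparison, because the Ndufa12 probe set is itself left out there. Of the medians over the 42 genes, that of B6By.C.132.54 minus C57BL/6ByJ moved from -0.054 to 0.012 under quantile normalization, and the cause was not tested. Leaving out 1 array gave medians of -0.034 to 0.015, -0.098 to -0.0057 and -0.071 to -9.7e-05 in the 3 comparisons. Replicate number changed no call among the members. Across the named member probe sets, 1030 values under alternatives kept their direction and call or moved within the spread of replicates, and 2 moved, both of Cox7c without the third B6By.C.132.54 array (0.08 against C57BL/6ByJ and 0.13 against BALB/cJ). Signal over background limits Cox7c, the called Sdha probe set in BALB/cJ and the dim probe sets of the other genes.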

Other observations

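In 2 neighbouring genes, named after their values were seen, 1 probe set was called between BALB/cJ and C57BL/6ByJ while others of the gene were not, as for Ndufa12 and Sdha. A probe set that was not called is not shown to be level. Uqcr10, a small subunit of complex III that is not among the 42 genes, read 6.99, 7.07 and 6.81 in C57BL/6ByJ, 3.44, 3.71 and 4.01 in BALB/cJ and 6.87, 6.84 and 6.90 in B6By.C.132.54 on probe set 1434340_at. The BALB/cJ arrays lay around the median of all probe sets (log2 difference -3.24, limma adjusted p = 2.94e-07, called in 15 of 15 alternatives). Its brightest probe set, 1424364_a_at, differed by -0.07 and was not called (limma adjusted p = 0.966), nor was 1434341_x_at (-0.25, limma adjusted p = 0.671). Idh3b, a subunit of the NAD-dependent isocitrate dehydrogenase, differed by -0.89 on probe set 1418885_a_at (limma adjusted p = 0.00577, called in 15 of 15 alternatives, with adjusted p from 0.000988 to 0.0361). Its brightest probe set, 1418886_s_at, was not called but differed in the same direction by -0.29 without overlap (limma adjusted p = 0.278), and by -0.24 to -0.32 over 15 alternatives. The third, 1441271_at, differed by -0.12 (limma adjusted p = 0.868).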
